A study of Citrus sinensis with 24 samples.

Results

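The genes described here are 5 receptor-like kinase genes, of the 24166 in the table. They are Cs1g14800 and Cs6g05010, both leucine-rich repeat (LRR) receptor kinase genes whose closest Arabidopsis gene is At3g47570, Cs1g01170 (CRK8), Cs2g02680 (CERK1) and Cs6g02710 (WAKL1). All of them are among the 72 that the study listed for correlation between expression and the fruit sugar/acid ratio. That choice used the same 24 libraries that are described here. The study first kept genes that changed between the stages in any variety, and then took those whose log2 expression was correlated with the ratio over all 24 libraries. The ratio was highest in Succari fruits at the later stage. For this reason the levels of Succari and Bingtang at 142 days postanthesis (DPA) and the stage changes are given as a description with no test, and only the comparisons at 45 DPA and those between Newhall and Xinhui are tested. The libraries of those tested comparisons also entered the correlation, so the tests are not wholly separate from the choice. Where genes past edgeR's threshold are counted in the described comparisons, the choice of the genes fixed that count in part, and nothing is read from it.

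RNA was measured by RNA-seq in fruit samples of field-grown sweet orange (Citrus sinensis) trees of 4 varieties at 142 and 45 DPA, with 3 biological replicates in each of the 8 groups. Succari is labelled acidless and Bingtang low in acid, while the labels call both Newhall and Xinhui acidic. The labels name no treatment or transgene and give the tissue only as fruit. The number of trees behind a group is not given in the sources used here.

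Receptor-like kinases are membrane proteins with a domain outside the cell that senses a ligand or the cell wall and a kinase domain inside the cell that passes the signal on. Their outer domains define the families seen here. LRR kinases form the largest family in plants and include receptors for peptide hormones and for microbial molecules. CRK8 belongs to the cysteine-rich receptor-like kinases. CERK1 carries LysM domains and in Arabidopsis takes part in the perception of chitin, the cell wall polymer of fungi. WAKL1 is related to the wall-associated kinases, whose outer domains contact pectin. These roles come from Arabidopsis and were not measured in orange fruits.

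Library totals ranged from 3.76 M to 5.89 M counted reads (M, the prefix mega), so that 1 read was worth 0.170 to 0.266 CPM (counts scaled to a library of 1 M reads). The kinase genes were low in these libraries, with 53 reads for Cs1g01170 over all 24 libraries, 126 for Cs1g14800, 168 for Cs2g02680, 179 for Cs6g02710 and 525 for Cs6g05010. Only uniquely mapped reads were counted, and receptor-like kinases form large families, so reads shared with near-identical copies are missing by an amount that was not tested. Intervals given for ratios are 95% Poisson intervals and cover counting error only. The SE given with a fitted log2 fold change was derived from the F value of edgeR's test. With few reads it can be smaller than counting error alone. All 5 genes passed the filter of 0.3 CPM in at least 3 libraries, which 20739 genes passed. Cs1g14800 passed only through Succari at 142 DPA, since outside that group 2 libraries reached 0.3 CPM. One library stood apart: Succari 142 DPA replicate 3 had r of 0.946 and 0.949 with replicates 1 and 2 of its group, while all other replicate pairs had r of 0.974 to 0.989. A list of 5 seed maturation genes, also taken from the study's 72 genes, summed to 3871 and 3939 CPM in Succari 142 DPA replicates 1 and 2 and to 36.0 CPM in replicate 3. The sum was 4.12 to 32.3 CPM in the 9 other libraries at 142 DPA and 0.341 to 3.02 CPM at 45 DPA. No list of fruit tissue markers was available to check the label of the tissue.

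All 5 kinase genes had their highest levels in Succari at 142 DPA. The lowest Succari library of that stage lay above the highest of all 21 other libraries in 5 of the 5 genes, a pattern that 3.37% of all genes tested shared. Against the 9 other libraries at 142 DPA alone the count was also 5, beside 5.56% of all genes. Since the correlation that chose the genes rewards this order, nothing is read from these counts. In the order of the 8 groups, the second place was taken by Bingtang at 142 DPA for 4 genes and by Newhall at 142 DPA for Cs2g02680. Below the first place, every pair of neighbouring groups overlapped in all 5 genes.

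**Figure D1:**
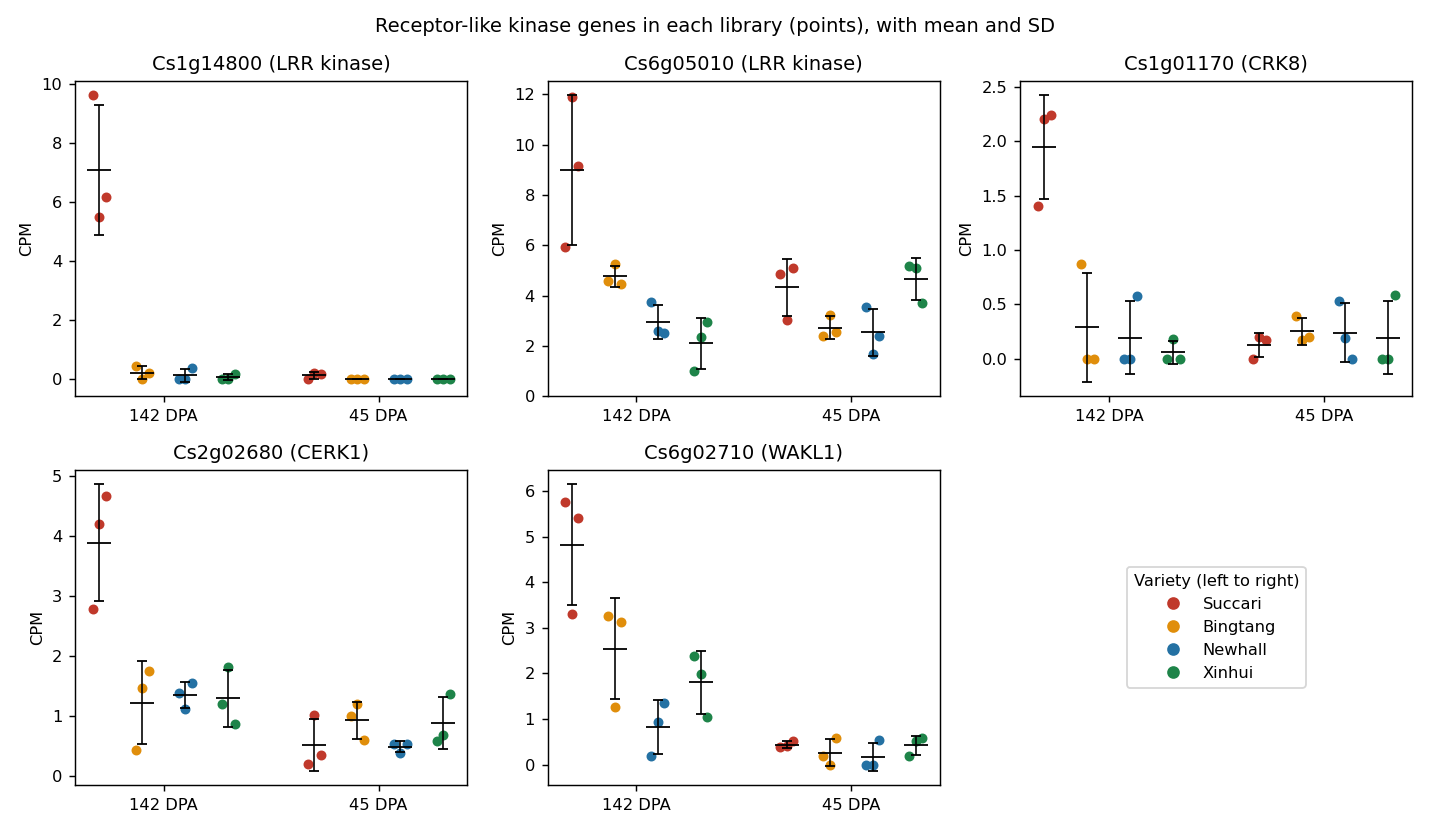
Level of each receptor-like kinase gene in every library, in CPM of the library total on the vertical axis, by stage and variety. Points are single libraries, horizontal marks are means and bars are the SD of 3 replicates. In each panel the 3 Succari points at 142 days postanthesis (DPA) lie above all 21 others.

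The LRR kinase gene Cs1g14800 came closest to being detected in a single group. It had 9.61, 5.50 and 6.16 CPM in Succari at 142 DPA, from 55, 30 and 33 reads. At the same stage it had 0.434, 0 and 0.195 CPM in Bingtang, 0, 0 and 0.386 CPM in Newhall and 0, 0 and 0.174 CPM in Xinhui. Of its 126 reads, 118 or 93.7% came from Succari at 142 DPA, and 15 libraries had no read at all. At 45 DPA only Succari gave any, with 0, 0.203 and 0.176 CPM from 2 reads. The 45 DPA libraries of Bingtang, Newhall and Xinhui had 0 reads. The upper ends of the 95% Poisson intervals were 0.231, 0.251 and 0.227 CPM over the 3 libraries of each variety. The mean in Succari at 142 DPA was 7.09 ± 2.21 CPM (SD, n = 3), 53.7 times (24.6 to 154) the mean of the 9 other libraries of that stage, which rests on 118 against 6 reads. Its fitted log2 fold change was 5.64 (SE 0.492).

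The other LRR kinase gene, Cs6g05010, shares its closest Arabidopsis gene with Cs1g14800 but was read in all 24 libraries. It had 5.94, 11.9 and 9.15 CPM in Succari at 142 DPA, against 4.56, 5.26 and 4.48 CPM in Bingtang. Newhall had 3.75, 2.60 and 2.51 CPM and Xinhui 0.994, 2.35 and 2.95 CPM at this stage. Thus the Succari and Bingtang libraries did not overlap, and neither did those of Bingtang and the 2 acidic varieties. At 45 DPA the levels were 4.84, 3.04 and 5.09 CPM in Succari, 2.38, 3.23 and 2.56 CPM in Bingtang, 3.55, 1.69 and 2.40 CPM in Newhall and 5.17, 5.09 and 3.71 CPM in Xinhui. Of its 525 reads, 28.2% came from Succari at 142 DPA, the lowest such share of the 5 genes. The Succari mean of 9.0 ± 2.99 CPM at 142 DPA was 2.75 times (2.19 to 3.5) the mean of the other varieties, with a fitted log2 fold change of 1.52 (SE 0.241).

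CRK8 (Cs1g01170) was the least counted of the 5 genes, with 1.40, 2.20 and 2.24 CPM in Succari at 142 DPA from 8, 12 and 12 reads. At that stage it had 0.868, 0 and 0 CPM in Bingtang, 0, 0 and 0.579 CPM in Newhall and 0, 0.181 and 0 CPM in Xinhui. Outside Succari at 142 DPA no library reached 1 CPM. At 45 DPA it had 0, 0.203 and 0.176 CPM in Succari, 0.396, 0.170 and 0.197 CPM in Bingtang, 0.533, 0.188 and 0 CPM in Newhall and 0, 0 and 0.586 CPM in Xinhui. The mean of 1.95 ± 0.475 CPM in Succari at 142 DPA was 10.8 times (5.07 to 28.2) that of the other varieties, with a fitted log2 fold change of 3.48 (SE 0.703). Succari at 142 DPA held 60.4% of its reads. At this depth the other 7 groups could not be set in order.

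CERK1 (Cs2g02680) had reads in all 24 libraries. Its levels at 142 DPA were 2.79, 4.21 and 4.67 CPM in Succari, 0.434, 1.47 and 1.75 CPM in Bingtang, 1.38, 1.11 and 1.54 CPM in Newhall and 1.19, 1.81 and 0.868 CPM in Xinhui. Bingtang, the low acid variety, overlapped both acidic varieties, with means of 1.22 ± 0.695 CPM in Bingtang, 1.35 ± 0.217 CPM in Newhall and 1.29 ± 0.476 CPM in Xinhui (SD, n = 3 each). At 45 DPA it had 0.193, 1.01 and 0.351 CPM in Succari, 0.990, 1.19 and 0.591 CPM in Bingtang, 0.533, 0.375 and 0.532 CPM in Newhall and 0.575, 0.679 and 1.37 CPM in Xinhui. At that stage Succari overlapped all other varieties. In Succari at 142 DPA the mean of 3.89 ± 0.976 CPM was 3.03 times (2.07 to 4.33) that of the other varieties, with a fitted log2 fold change of 1.58 (SE 0.309).

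WAKL1 (Cs6g02710) had 5.76, 3.30 and 5.41 CPM in Succari at 142 DPA, 3.26, 1.26 and 3.12 CPM in Bingtang, 0.197, 0.928 and 1.35 CPM in Newhall and 2.39, 1.99 and 1.04 CPM in Xinhui. The lowest Succari library was only just above the highest Bingtang library, by 3.30 against 3.26 CPM. At 45 DPA it had 0.387, 0.406 and 0.527 CPM in Succari, 0.198, 0 and 0.591 CPM in Bingtang, 0, 0 and 0.532 CPM in Newhall and 0.192, 0.509 and 0.586 CPM in Xinhui. No 45 DPA library therefore passed 0.591 CPM. The mean of 4.82 ± 1.33 CPM in Succari at 142 DPA was 2.80 times (2.06 to 3.93) that of the other varieties, with a fitted log2 fold change of 1.63 (SE 0.371).

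By the threshold of an adjusted p under 0.05 and a fold change of at least 2 in edgeR's quasi-likelihood fit, 5 of the 5 genes lay on the higher side at 142 DPA when Succari was set against the other 3 varieties, where 11.9% of all genes passed the threshold in either direction and 10.1% on the higher side. Their median log2 fold change was 1.63, against 0.06 over all genes tested. This comparison was part of the choice of the genes, and the count is therefore only their description. In fruit samples that hold several tissues, fewer cells of a type and less RNA per cell cannot be told apart.

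In Bingtang against the mean of Newhall and Xinhui at 142 DPA, 0 of the 5 genes passed the same threshold, where 7.41% of all genes did. Cs6g05010 was 1.89 times (1.34 to 2.62) higher in Bingtang, with all 3 libraries above all 6 of the acidic varieties, an arrangement that 5.45% of all genes showed. Its log2 fold change was 0.93 (SE 0.297). WAKL1 (Cs6g02710) had a similar ratio of 1.94 (1.21 to 3.10) but overlapping libraries, and a log2 fold change of 1.05 (SE 0.463). The other 3 genes overlapped as well. Without Newhall 142 DPA replicate 1, or without Xinhui 142 DPA replicate 3, Cs6g05010 passed the threshold, so that 1 gene did.

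The seed maturation genes were highest in replicates 1 and 2 of Succari at 142 DPA, and the kinase genes were set beside them library by library. Between the highest and the lowest of the 3 Succari libraries at 142 DPA, the seed genes spanned 19.7-fold to 229-fold, and the kinase genes 1.60-fold to 2.01-fold. In replicate 3, where the seed genes were at 0.00455 to 0.0673 times the mean of replicates 1 and 2, Cs1g14800 was at 0.816 times that mean, Cs6g05010 at 1.02, CRK8 at 1.25, CERK1 at 1.33 and WAKL1 at 1.19 times. Beyond these values, the part of seed tissue in the levels of the kinase genes was not tested. A seed sum close to that of Succari replicate 3, 32.3 CPM, was reached by Xinhui 142 DPA replicate 3, where Cs1g14800 had 0.174 CPM, CRK8 0 CPM, CERK1 0.868 CPM, WAKL1 1.04 CPM and Cs6g05010 2.95 CPM.

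**Figure D2:**
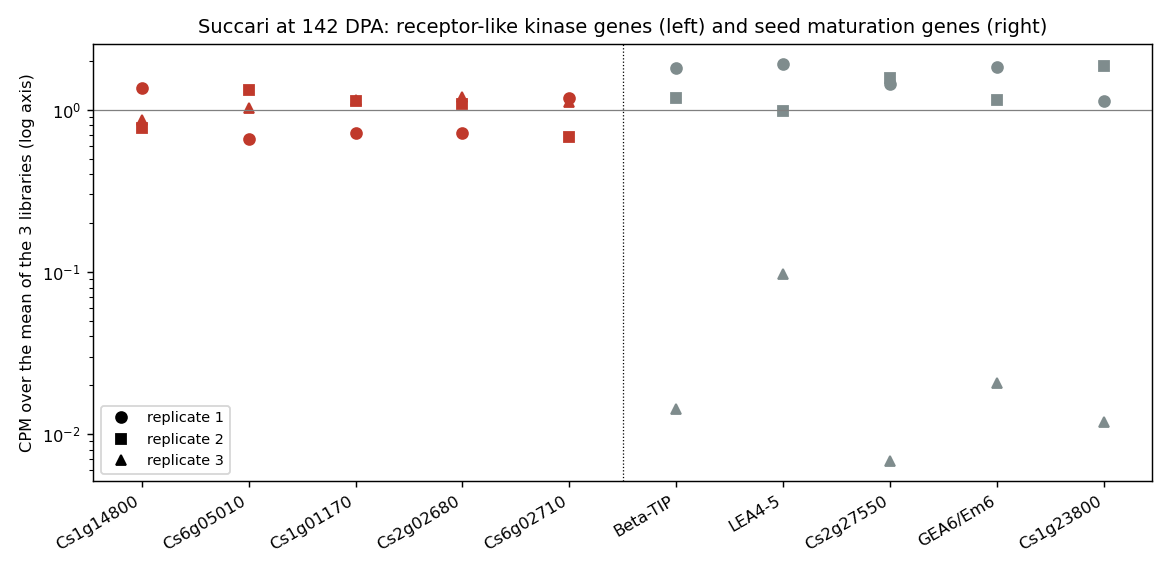
CPM of each gene in the 3 Succari libraries at 142 DPA, divided by the mean of the 3, on a log axis. The receptor-like kinase genes on the left stay within a 2.01-fold span, while the 5 seed maturation genes on the right fall in replicate 3 to between 0.00455 and 0.0673 times the mean of replicates 1 and 2.

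Whether the kinase genes differed between varieties before the later stage was asked at 45 DPA. In Succari against the other 3 varieties, 0 of the 5 genes were called by edgeR's quasi-likelihood test, where 3.22% of all genes were. Cs6g05010 averaged 4.32 ± 1.12 CPM in Succari, against 2.72 ± 0.452 CPM in Bingtang, 2.55 ± 0.941 CPM in Newhall and 4.66 ± 0.821 CPM in Xinhui (SD, n = 3 each). Its log2 fold change was 0.38 (SE 0.272, edgeR adjusted p = 0.432). CERK1 had a log2 fold change of -0.55 (SE 0.508, edgeR adjusted p = 0.575), WAKL1 0.73 (SE 0.760, edgeR adjusted p = 0.628) and CRK8 -0.82 (SE 1.19, edgeR adjusted p = 0.751). At this stage the Succari libraries thus overlapped those of the other varieties in all of these genes. Of the 5 genes, 1 had an unadjusted p under 0.05 in edgeR's test, Cs1g14800 (edgeR adjusted p = 0.202). It had 2 Succari reads against 0 in the 9 other libraries and entered the fit only through Succari at 142 DPA, so that its p is no measure of a difference at 45 DPA. No call was made by DESeq2, limma or limma-voom either. For CERK1, WAKL1 and CRK8 a log2 fold change of 1 was less than 2 SE from 0, so that a 2-fold difference was not detectable at this depth. A call also needed the adjusted p to pass, so 2 SE is not its limit. The smallest difference that could be called was not determined for Cs6g05010.

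In Bingtang against Newhall and Xinhui at 45 DPA, 0 of the 5 genes were called, where 1.16% of all genes were, and 0 had an unadjusted p under 0.05. The log2 fold changes were -0.33 (SE 0.314, edgeR adjusted p = 0.668) for Cs6g05010 and 0.53 (SE 0.478, edgeR adjusted p = 0.648) for CERK1. WAKL1 gave 0.03 (SE 0.587, edgeR adjusted p = 1.00) and CRK8 0.15 (SE 1.08, edgeR adjusted p = 0.987). For WAKL1 and CRK8 a log2 fold change of 1 was less than 2 SE from 0, so a 2-fold difference was not detectable. For CERK1 it was only just beyond 2 SE, which is short of what a call after adjustment asks. The smallest difference that could be called was not determined for Cs6g05010. Cs1g14800 had no read in any of these libraries, so that no difference could be detected at this depth.

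The 2 acidic varieties were compared with each other at both stages. In Newhall against Xinhui at 142 DPA, 0 of the 5 genes were called, where 6.79% of all genes were, and 0 had an unadjusted p under 0.05. WAKL1 averaged 0.825 ± 0.583 CPM in Newhall and 1.80 ± 0.691 CPM in Xinhui (SD, n = 3 each), a log2 fold change of -1.23 (SE 0.600, edgeR adjusted p = 0.153). Cs6g05010 differed by 0.29 (SE 0.377, edgeR adjusted p = 0.649) and CERK1 by -0.10 (SE 0.464, edgeR adjusted p = 0.931) on the same scale. CRK8 and Cs1g14800 had 3 reads or fewer in each variety, with edgeR adjusted p of 0.659 and 0.797. At this depth these p are no measure of a difference. At 45 DPA 0 of the 5 genes were called, where 2.96% of all genes were. There all Newhall libraries lay below all Xinhui libraries for Cs6g05010, with means of 2.55 CPM in Newhall and 4.66 CPM in Xinhui, and for CERK1, with means of 0.480 CPM in Newhall and 0.874 CPM in Xinhui. This was so for 20.1% of all genes. For Cs6g05010 the log2 fold change of -0.80 (SE 0.350) did not pass after adjustment (edgeR unadjusted p = 0.0332, adjusted p = 0.214). Of the 5 genes, 1 had an unadjusted p under 0.05, this one. CERK1 gave -0.77 (SE 0.605, edgeR adjusted p = 0.575), WAKL1 -1.44 (SE 1.09, edgeR adjusted p = 0.553) and CRK8 0.53 (SE 1.30, edgeR adjusted p = 0.897). For these genes, and for WAKL1 at 142 DPA, a log2 fold change of 1 was less than 2 SE from 0. A 2-fold difference was therefore not detectable in them. The change of Cs6g05010 at 45 DPA was beyond 2 SE from 0 and still had an edgeR adjusted p of 0.214, so 2 SE is not the limit of a call. A 2-fold difference in CERK1 at 142 DPA, only just beyond 2 SE, could thus have gone uncalled as well. The smallest difference that could be called was not determined for Cs6g05010. Cs1g14800 had 0 reads in both varieties at this stage and could not be called. DESeq2, limma and limma-voom also made 0 calls in these 3 comparisons.

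The stage changes, which took part in the choice of the genes, are described within each variety. In Succari 5 of the 5 genes passed the threshold at 142 against 45 DPA on the higher side, where 35.5% of all genes passed it in either direction and 18.2% on the higher side. In all 5 the libraries of the 2 stages did not overlap, as in the 31.2% of all genes that lay higher at 142 DPA in this way. Cs1g14800 gave a ratio of 56.2 (15.3 to 471) that rests on 2 reads at 45 DPA, and CRK8 a ratio of 15.4 (3.90 to 132), also on 2 reads. WAKL1 was 11 times (5.06 to 28.0) and CERK1 7.49 times (3.65 to 18.4) higher at 142 than at 45 DPA, with log2 fold changes of 3.38 (SE 0.597) and 2.87 (SE 0.476). Cs6g05010 gave the smallest ratio, 2.08 (1.53 to 2.77), with a log2 fold change of 1.04 (SE 0.303) that lay close to the threshold. Without Succari 142 DPA replicate 2 it was 0.78 and without Succari 45 DPA replicate 2 it was 0.84, so that 4 genes passed. The genes with the fewest reads at 45 DPA thus gave the largest ratios, and those with the widest intervals.

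Outside Succari, WAKL1 was the only gene with a ratio above 4 in every other variety, among those for which ratios could be formed. It was 9.67 times (3.67 to 39.4) higher at 142 than at 45 DPA in Bingtang, 4.65 times (1.38 to 55.8) in Newhall on 2 reads at 45 DPA, and 4.21 times (1.76 to 11.1) in Xinhui. Its stages did not overlap in Bingtang, as in 33.6% of all genes higher at 142 DPA, nor in Xinhui, where that share was 28.4%, and they overlapped in Newhall. Its log2 fold changes were 3.16 (SE 0.719) in Bingtang, 2.24 (SE 0.984) in Newhall and 2.03 (SE 0.672) in Xinhui. CERK1 was 2.80 times (1.16 to 7.86) higher at 142 than at 45 DPA in Newhall, without overlap, as were 38.5% of all genes, and its ratios of 1.32 in Bingtang and 1.47 in Xinhui came from overlapping libraries. CRK8 gave a ratio of 1.14 (0.206 to 5.93) in Bingtang and 0.803 (0.103 to 4.17) in Newhall, and intervals of this width leave its direction unknown. In Xinhui it had 1 read at 142 DPA and 3 reads at 45 DPA. For Cs1g14800 no ratio was formed in Bingtang, Newhall or Xinhui, where both stages had 3 reads or fewer.

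Cs6g05010 took opposite directions in different varieties. In Bingtang, where its stages did not overlap either, it was 1.75 times (1.17 to 2.59) higher at 142 than at 45 DPA, with a log2 fold change of 0.73 (SE 0.346), and in Newhall the ratio was 1.16 and the log2 fold change 0.02 (SE 0.374). In Xinhui all 3 libraries at 142 DPA, 0.994 to 2.95 CPM, lay below all 3 at 45 DPA, 3.71 to 5.17 CPM, as in 34.9% of all genes, with a ratio of 0.450 (0.298 to 0.692) and a log2 fold change of -1.06 (SE 0.354). Libraries that did not overlap, higher at 142 DPA in Succari and lower in Xinhui, were found in 0.617% of all genes tested, and in 0.125% when Bingtang was also higher. The pattern counted is that of this gene, whose choice used the stage changes, so nothing is read from these shares. The stage changes share no libraries between varieties, but their difference was not tested, since the choice of genes used them.

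By the threshold, 1 of the 5 genes (WAKL1) passed in Bingtang, where 37.8% of all genes did and 17.4% on the higher side, and 0 in Newhall, where 35.7% did. In Xinhui 2 passed, WAKL1 on the higher and Cs6g05010 on the lower side, where 35.2% of all genes did, 15.3% on the higher and 19.9% on the lower side. The median fitted log2 stage change of the 5 genes was 3.38 for Succari, 0.73 for Bingtang, 1.28 for Newhall and 0.61 for Xinhui, while that of all genes lay between -0.02 and 0.03. Without Cs1g14800, which had 2 reads or none at 45 DPA in each variety, the median of the other 4 genes was 3.12 for Succari, 0.54 for Bingtang, 0.65 for Newhall and -0.23 for Xinhui. These medians still count CRK8, which had 3 and 4 reads at 142 and 45 DPA in Newhall and 1 and 3 in Xinhui. The sign of the Xinhui median depends on that gene, so nothing is read from it. The counts of Newhall and Xinhui moved with the setting. Under library totals alone, upper-quartile scaling or limma on log2(CPM + 0.1), CERK1 and WAKL1 also passed in Newhall, 2 genes. Without Xinhui 45 DPA replicate 1, 0 genes passed in Xinhui, and without Xinhui 45 DPA replicate 2 or Xinhui 142 DPA replicate 1 the count was 1. In Newhall 1 gene passed in 8 of the 24 fits that left out a library. It was WAKL1 without Newhall 142 DPA replicate 1, Newhall 45 DPA replicate 3, Bingtang 142 DPA replicate 2 or Bingtang 45 DPA replicate 2 or 3, and CERK1 without Bingtang 142 DPA replicate 1, Succari 45 DPA replicate 2 or Xinhui 45 DPA replicate 3.

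**Figure D3:**
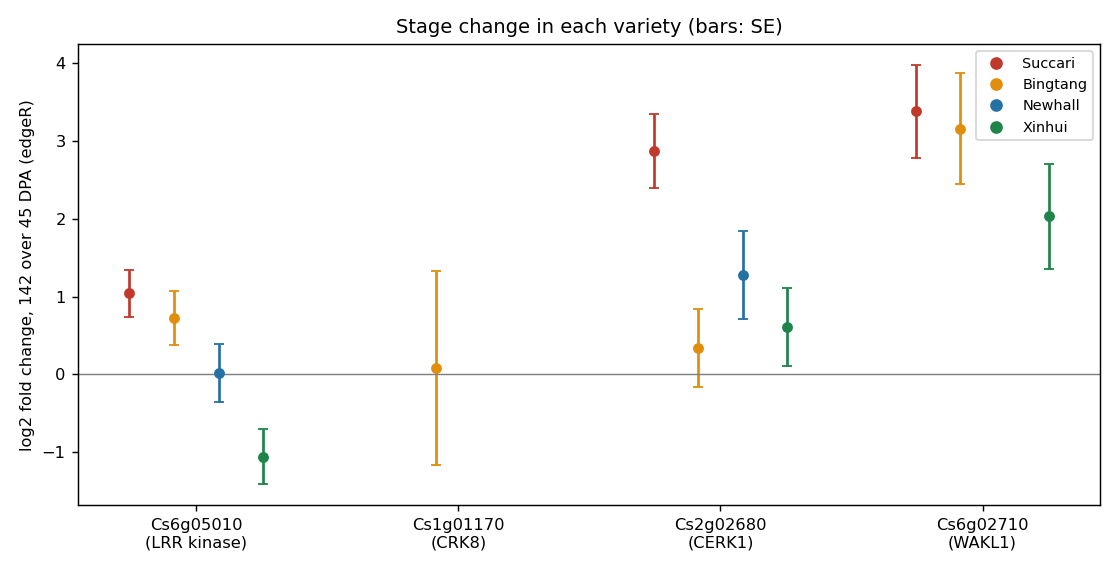
Fitted log2 fold change (edgeR) at 142 over 45 DPA in each variety for 4 of the kinase genes, with bars of 1 SE on each side. The SE was derived from the F value of the test and can be smaller than counting error. A variety is left out where one of its 2 groups had 3 reads or fewer, and Cs1g14800 is left out in every variety for that reason. Cs6g05010 runs from 1.04 in Succari to -1.06 in Xinhui, while WAKL1 lies above 2 in all varieties drawn.

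How far the kinase genes moved together beyond the Succari libraries of 142 DPA was described by Pearson's r of log2(CPM + 0.1). Over the 24 libraries r was 0.33 to 0.74 in the 10 pairs of genes, the highest for Cs1g14800 with CRK8 and the lowest for CRK8 with WAKL1. Without the 3 Succari libraries of 142 DPA it was -0.21 to 0.48 over 21 libraries. The r of the pair of LRR kinase genes was 0.63 over 24 libraries and 0.18 over 21. That of Cs1g14800 with CERK1 was 0.65 over 24 and 0.03 over 21. The highest values over the 21 libraries were 0.48 for Cs1g14800 with WAKL1, 0.36 for Cs1g14800 with CRK8 and 0.35 for CERK1 with WAKL1. The range over 24 libraries was 0.38 to 0.84 with a pseudocount of 0.5 CPM, 0.42 to 0.86 with 1 CPM and 0.20 to 0.66 as Spearman's rho. The lowest pair, CRK8 with WAKL1, had 0.54 with 0.5 CPM and 0.61 with 1 CPM, and Cs6g05010 with CRK8 had a rho of 0.20 against an r of 0.43. Over the 9 libraries of 142 DPA without Succari r was -0.45 to 0.69, the highest again for Cs1g14800 with CRK8, and over the 12 libraries of 45 DPA it was -0.35 to 0.49. Libraries of a group share variety and stage, and many of the values are 0 or 1 read, so these coefficients are descriptions and carry no p.

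**Figure D4:**
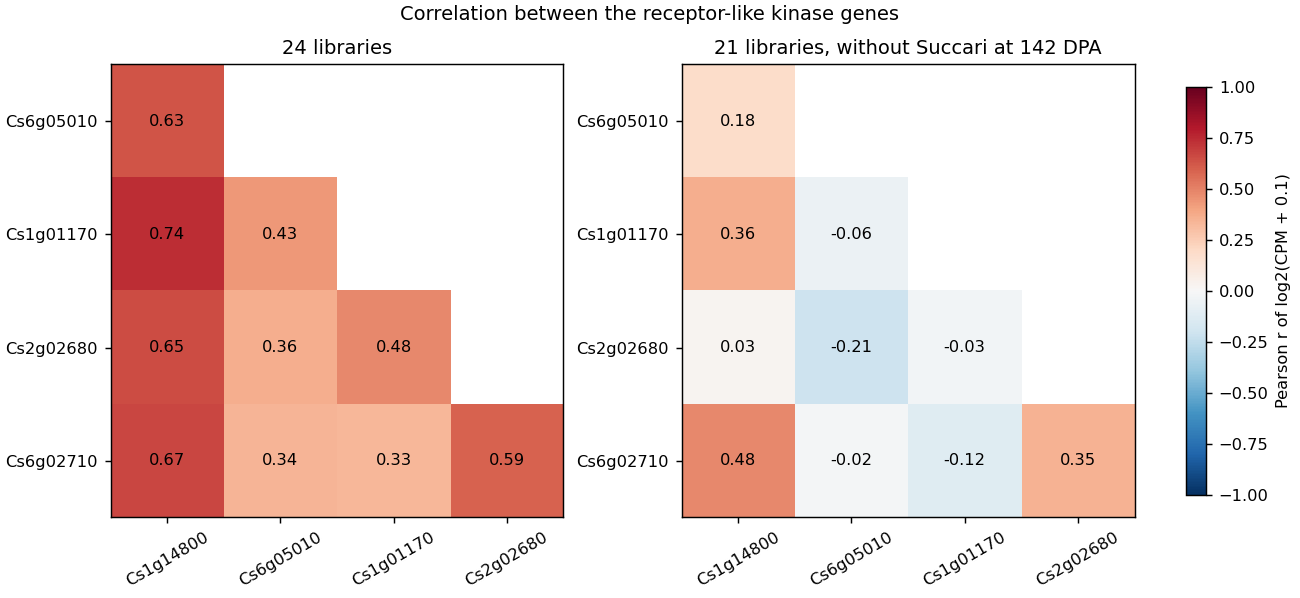
Pearson's r between each pair of kinase genes, from log2(CPM + 0.1), over 24 libraries on the left and over the 21 libraries without Succari at 142 DPA on the right. Colour runs from -1 to 1. All 10 coefficients are at least 0.33 on the left, and they lie between -0.21 and 0.48 on the right.

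Among the other genes of the study's list, the nearest pattern to Cs1g14800 over 24 libraries was that of Cs2g20110, with r of 0.92, the highest among all 20739 genes tested, and then AHP5 (Cs3g07510), a histidine phosphotransfer protein gene of the cytokinin pathway, with 0.89. For Cs6g05010 they were UNE10 (0.70), a transcription factor gene, and ABCB21 (0.65), an ABC transporter gene, and for CRK8 they were Cs1g20300 (0.72) and Cs2g20110 (0.71). CERK1 was nearest to PGI (0.79), a gene for the glycolytic enzyme phosphoglucose isomerase, and to Cs5g23250 (0.77), and WAKL1 to BOR4 (0.82), a boron transporter gene, and EMB2757 (0.80). In the order of all genes these 2 neighbours of WAKL1 stood at places 55 and 121, whereas those of CRK8 stood at 2 and 3. The neighbours and kinase genes were chosen by correlation with the same ratio, so nothing is read from their r or places over 24 libraries. All of these coefficients were lower over the 21 libraries without Succari at 142 DPA. That of Cs1g14800 with Cs2g20110 was 0.38 there, at place 2786 among all genes, and that with AHP5 was 0.62 at place 34. CRK8 with Cs1g20300 had 0.39 at place 214, Cs6g05010 with UNE10 had 0.53 at place 220, WAKL1 with BOR4 had 0.74 at place 347 and CERK1 with PGI had 0.56 at place 1245. The neighbours also depended on the pseudocount. With 0.5 or 1 CPM, Cs1g03610 (0.83 and 0.87) was nearest to CRK8 and SRG1 (0.87 and 0.88) to WAKL1, and with 1 CPM orange1.1t01135 (0.69) was nearest to Cs6g05010. Second places changed as well, to RD21A (0.93) for Cs1g14800 and LBD1 (0.82) for CERK1 with 1 CPM. Within Succari at 142 DPA, AHP5 had 22.5, 15.4 and 2.61 CPM in replicates 1, 2 and 3, and Cs1g14800 9.61, 5.50 and 6.16 CPM.

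A further 6 genes of the study's list were grouped here as signalling and defence genes. They were AHP5, ARR2 (orange1.1t00294), a response regulator gene of the cytokinin pathway, the putative kinase gene orange1.1t02858 and the disease resistance homologs Cs5g18450, Cs5g19950 and orange1.1t01829. The study placed ARR2 under transcription and orange1.1t02858 under metabolism, and its stress response gene HSP18.2 was left out here. The 6 genes were chosen on these libraries by the same correlation. All 6 passed the threshold on the higher side in Succari at 142 DPA against the other varieties and in the Succari stage change. On that side 10.1% and 18.2% of all genes passed. In Succari at 142 DPA, the highest library was 8.62 times the lowest for AHP5 and 5.69 times for orange1.1t02858. In both genes replicate 3 was the lowest. For orange1.1t02858 it had 0.933 CPM, below the 1.56 CPM of Bingtang 142 DPA replicate 3. The other genes of the 6 spanned at most 2.20-fold. The part of seed tissue in these levels was not tested. In the stage change, 4 passed in Bingtang, 4 in Newhall and 3 in Xinhui, beside 37.8%, 35.7% and 35.2% of all genes, and nothing is read from these counts either. At 45 DPA the comparison of Succari with the other varieties called 0 of the 6, where 3.22% of all genes were called. Of the 6, 1 had an unadjusted p under 0.05 in edgeR's test, AHP5 (edgeR adjusted p = 0.107). Its value rests on 7 reads in Succari, 1 in Bingtang and 0 in both Newhall and Xinhui. Bingtang against the acidic varieties, where 1.16% of all genes were called, gave 1 call among the 6 at that stage, orange1.1t01829. This gene averaged 2.38 ± 0.337 CPM in Bingtang, against 0.628 ± 0.536 CPM in Newhall and 0.621 ± 0.132 CPM in Xinhui (SD, n = 3 each), a log2 fold change of 1.85 (SE 0.448, edgeR adjusted p = 0.0195).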

How the data were processed

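Fruit RNA-seq libraries of 4 sweet orange varieties at 142 and 45 DPA were analysed, 24 in all, 3 per group. The authors deposited 1 table of 24166 genes whose values are counts of uniquely mapped reads per gene, without normalization. Its title speaks of RPKM, but the values are whole numbers whose sums equal the totals in the file headers, so a count test was used. The sources used here give neither the aligner nor the genome build. Groups came from the labels. Replicates 1 to 3 of a group follow the order of its samples, and in most groups the sample titles carry other numbers.

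Counts were tested with the quasi-likelihood test of edgeR 4.0.16 (R 4.3.3, TMM scaling) in one fit of 8 groups, on 20739 genes that reached 0.3 CPM in 3 or more libraries. A gene was called at a Benjamini-Hochberg adjusted p under 0.05 over these genes and a change of 2-fold or more. The study's methods used edgeR with the same limits. CPM were taken from library totals of 3.76 M to 5.89 M reads. No fold was formed where both groups had 3 reads or fewer. P-values rest on the spread between replicates within groups, taken as a single estimate per gene that the 8 groups share. The SE of a log2 fold change in edgeR is its size divided by the square root of the F value of its test. It was not an output of the fit itself, and for genes with few reads it can understate the error.

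The named genes were the 5 kinase genes, for each of them the 2 other genes of the study's list with the highest r, and 6 genes of that list grouped here as signalling and defence genes. The kinase genes, the lists and the tests were chosen with earlier results of these data known. Gene names are those of the study, since 0 of 24166 gene IDs were found in the RefSeq reference table, and for that reason no positions or sequences are given. The fit was tested on simulated counts with known changes. Alternatives were median-ratio and upper-quartile scaling, library totals only, other filters, DESeq2 1.42.0, limma 3.58.1 on log2(CPM + 0.1), limma-voom, the groups compared only, a replicate block and leaving out each library. TMM-scaled CPM for the order of groups, and the pairs of kinase genes over 9 libraries at 142 DPA, were added after the data were seen. Other values came from numpy 2.4.6, scipy 1.17.1 and pandas 2.3.3 in Python 3.11.15, and figures from matplotlib 3.10.9.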

Additional observations from a re-analysis of the deposited data

Results flagged for a closer look

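The stage change of the LRR kinase gene Cs6g05010 ran in opposite directions between varieties, with every library of one stage on one side of every library of the other. The ratio of its mean CPM at 142 over 45 DPA was 2.08 in Succari and 1.75 in Bingtang, against 0.450 in Xinhui. The difference between these ratios was not tested, since the stage changes were used to choose the gene. The fitted log2 stage change stayed above 0 in Succari and Bingtang and below 0 in Xinhui in all 34 other settings, between 0.78 and 1.23 in Succari, 0.63 and 0.88 in Bingtang and -1.45 and -0.70 in Xinhui.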

How the results depend on the processing

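The 5 kinase genes, whose choice used this contrast, were past the threshold in Succari at 142 DPA in all 34 alternatives, of which 24 each leave out 1 library, and the log2 fold changes there were 5.27 to 6.5 for Cs1g14800, 3.28 to 4.69 for Cs1g01170, 1.45 to 1.74 for Cs2g02680, 1.44 to 1.84 for Cs6g02710 and 1.26 to 1.73 for Cs6g05010. In the 4 tested comparisons 0 genes were called under every alternative. The stage count in Newhall, 0 genes, was 2 with library totals only, 2 with upper-quartile scaling, 2 with limma on log2(CPM + 0.1), 1 with limma-voom and 1 with the groups compared only, and 0 to 1 when 1 library was left out. The stage count in Xinhui, 2 genes, was 1 with upper-quartile scaling, where Cs6g05010 had -0.99, and 0 to 2 when 1 library was left out. For Bingtang against the acidic varieties at 142 DPA the count was 0 to 1 and for the Succari stage change 4 to 5 when 1 library was left out. The causes were not tested, beyond the smaller number of samples. Replicates with the same number deviated together no more than others, with r of -0.13 to 0.13 against -0.15 to 0.11, so no pairing was seen by these numbers. They follow the order of the samples, and a pairing by the numbers in the sample titles was not tested. The replicate block changed none of the counts: 0 in the 4 tested comparisons and in the Newhall stage change, 5 for Succari in both contrasts, 1 in the Bingtang and 2 in the Xinhui stage change. The genes nearest in pattern changed with Spearman's rho too, which put CNGC1 first for CERK1 (0.75). With 53 to 525 reads per gene, depth limits any order of the groups below Succari at 142 DPA.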
